A study of Mus musculus with 6 samples.

Results

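The sorting nexins are a family of proteins that bind endosomal membranes through a PX domain, and the retromer is the complex of VPS26, VPS29 and VPS35 that works beside many of them. The genes described here are every gene of the deposited count table whose symbol is Snx followed by a number, 30 genes, and the retromer genes Vps26a, Vps26b, Vps29 and Vps35, together 34 of 46983 genes. They were chosen because Snx7 differed strongly between the groups in these same libraries. The differences of the members are therefore a description and carry no p-value. A filter on low counts was passed by 32 of the 34, and Snx22 and Snx31 did not pass it.

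Mouse leukemia cells of 2 genotypes were profiled by sequencing of poly-A RNA, with 3 libraries each, and the comparison asks how Alox5-/- cells, altered in the gene of 5-lipoxygenase, differ from wild-type cells. The first group came from C57BL/6J Alox5-/- donors and the second from C57BL/6J WT donors. In both groups donor bone marrow was sorted in 2 rounds for cells without lineage markers and with Sca-1 and c-Kit (LSK cells), the sorted cells received the MLL-AF9 fusion oncogene by retrovirus, and GFP+ cells were put into irradiated C57BL/6J recipients. All 6 libraries were untreated. The leukemia rests on a retroviral oncogene in transplanted donor cells, in recipients given only as C57BL/6J. The labels call the 3 libraries of a group biological replicates and do not say from which animals they came, so p-values reflect no more than the spread among these samples, which may be technical.

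Sorting nexins gather at endosomes, where internalised receptors are either returned to the surface or to the Golgi or sent on to lysosomes. Those with a BAR domain (SNX-BAR proteins) bend the membrane into tubules, usually as pairs of different members, while others bind cargo or carry enzyme and scaffold domains. Retromer sorts cargo out of the same compartment with the help of several of them.

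Snx7 stood far apart from the rest of the family. SNX7 and SNX30 are alternative partners of SNX4 in SNX-BAR pairs that recycle the transferrin receptor and act in autophagy. Snx7 (ENSMUSG00000028007.13, minus strand of chr3:117781647-117868936, mm10) had 590, 574 and 644 read counts in the Alox5-/- libraries and 64, 61 and 83 in the WT libraries. Scaled to a common library size (CPM), these were 18.9, 19.6 and 21.7 CPM in Alox5-/- against 2.14, 2.05 and 2.175 CPM in WT. The groups were far from overlapping, and the lowest Alox5-/- library lay well above the highest WT library. Mean expression was 20.1 ± 1.42 CPM in Alox5-/- against 2.12 ± 0.0627 CPM in WT (SD, n = 3 each), 9.45-fold higher in Alox5-/-, with a log2 fold change of 3.24 (standard error, SE, 0.09). Every SE given here was derived from the F statistic of the test. In the ranking of all 13705 tested genes by log2 fold change Snx7 was at place 8. In bulk RNA, fewer cells that use a gene and less RNA of it per cell cannot be told apart.

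Neither Snx4, whose protein is the shared partner, nor Snx30, whose protein is the alternative to SNX7, shared the difference of Snx7. Snx4 was at 112.2, 114.3 and 111.5 CPM in Alox5-/- against 122.9, 122.4 and 122.9 CPM in WT, a difference of -0.12 on the log2 scale (SE 0.03) with no overlap between the groups. Snx4 thus differed by little and in the opposite direction to Snx7. Snx30 was at 16.75, 16.89 and 15.64 CPM in Alox5-/- against 15.74, 15.72 and 16.19 CPM in WT, a difference of 0.05 on the log2 scale (SE 0.06). Its libraries overlapped, and it did not pass the threshold, an adjusted p of 0.05 in edgeR's quasi-likelihood test. The plot of CPM by library shows these genes with others of the family.

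**Figure D1:**
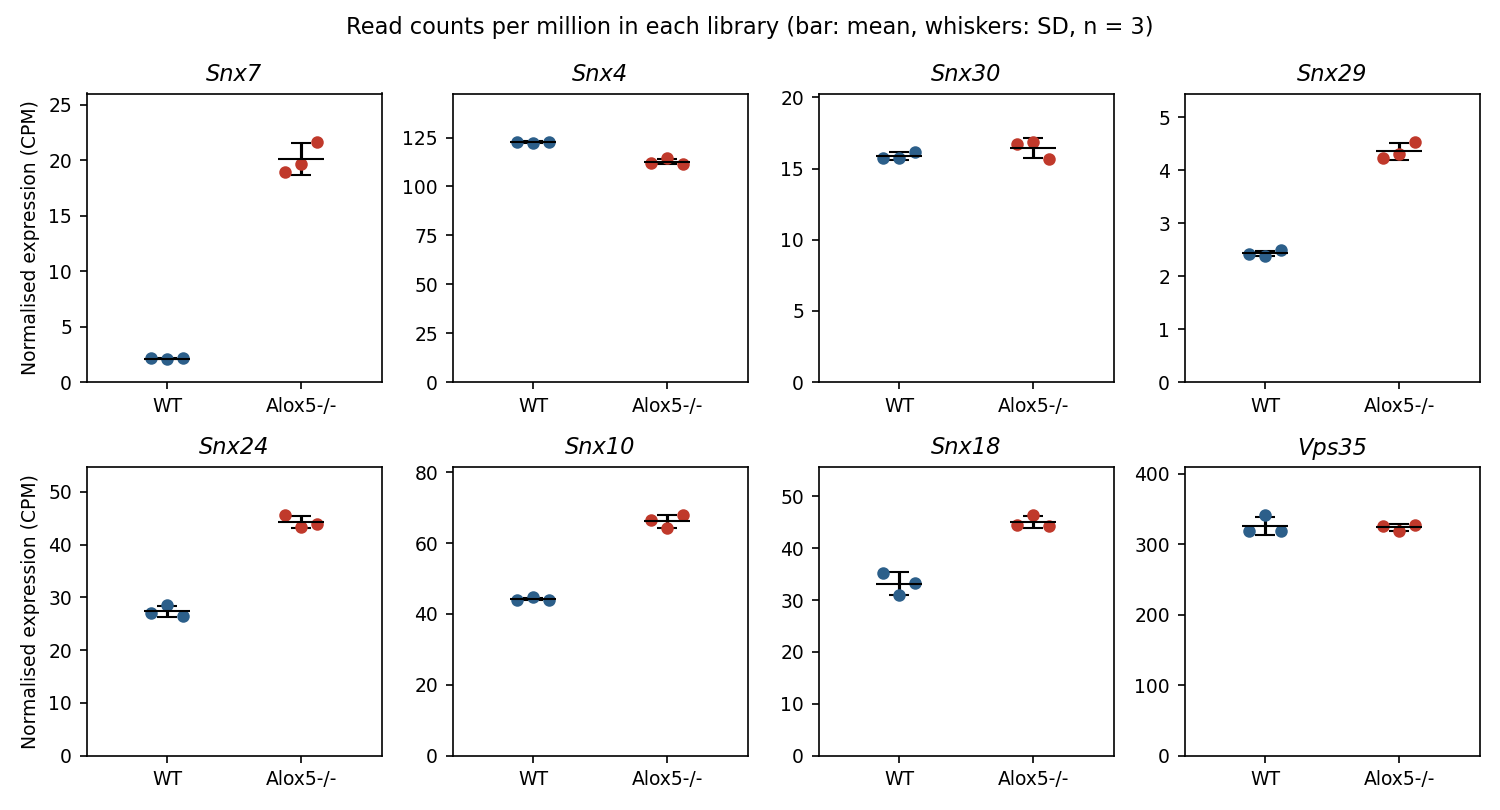
Normalised expression (CPM, linear axes from 0) of 8 members in each of the 3 WT (blue) and 3 Alox5-/- (red) libraries; bars are means and whiskers SD. Snx7 goes from 2.12 to 20.1 CPM, Snx4 and Vps35 differ by little, and the libraries of Snx30 and Vps35 overlap.

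The start regions of Snx7, Snx4 and Snx30 are printed because SNX7 and SNX30 are alternative partners of SNX4 and only Snx7 differed strongly in these libraries. Each is the RefSeq promoter window of build GRCm38.p6, 250 bases before and 50 after the annotated start, 5′ to 3′ on the strand of the gene. They lie at chr3:117868887-117869186 (minus strand) for Snx7, chr16:33251206-33251505 (plus strand) for Snx4 and chr4:59805400-59805699 (plus strand) for Snx30, whose RefSeq start is 190 bases from the start in the GENCODE annotation. Capitals mark matches to the motifs searched.
Snx7: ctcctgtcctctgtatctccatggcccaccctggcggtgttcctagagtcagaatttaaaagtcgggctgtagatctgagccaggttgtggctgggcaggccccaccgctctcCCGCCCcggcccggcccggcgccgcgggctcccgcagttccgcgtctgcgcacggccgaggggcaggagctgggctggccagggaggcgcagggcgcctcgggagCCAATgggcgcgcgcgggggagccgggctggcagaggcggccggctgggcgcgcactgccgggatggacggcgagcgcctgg
Snx4: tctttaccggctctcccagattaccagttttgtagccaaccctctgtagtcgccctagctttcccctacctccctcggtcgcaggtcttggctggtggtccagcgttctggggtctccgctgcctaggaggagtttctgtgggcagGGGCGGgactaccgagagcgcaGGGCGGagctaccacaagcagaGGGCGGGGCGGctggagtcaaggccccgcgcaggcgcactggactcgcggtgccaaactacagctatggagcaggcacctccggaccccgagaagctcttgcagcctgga
Snx30: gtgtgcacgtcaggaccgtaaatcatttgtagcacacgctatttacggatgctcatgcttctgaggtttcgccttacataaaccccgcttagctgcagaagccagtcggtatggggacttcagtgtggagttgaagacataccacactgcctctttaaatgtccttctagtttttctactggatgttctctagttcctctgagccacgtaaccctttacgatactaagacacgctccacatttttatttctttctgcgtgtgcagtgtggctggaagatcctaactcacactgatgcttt
Motifs were searched as exact letters on both strands: the TATA box TATAAA, the CCAAT box CCAAT, the E-box CACGTG, the GC box GGGCGG, an ETS site CCGGAAG, a CRE TGACGTCA and an ATF4-type site TGATGNAA. The Snx7 window has 1 GC box, on the opposite strand, and 1 CCAAT box, with 73.7% G and C and 32 CpG. In the Snx4 window there are 4 GC boxes, the last of which shares a base with the one before it, with 64.0% G and C and 19 CpG. The Snx30 window holds none of the 7 motifs and has 46.0% G and C and 11 CpG. A match is only a match of letters.

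Windows were present for 24 of the 34 members, 30 windows in all because some genes have several starts. A GC box was found in 22 of the 30 windows and 18 of the 24 members, against 35.7% of the 32851 mouse windows of the same length. The CCAAT box was in 11 of the 30 windows (37.4% of all mouse windows), the ETS site in 5 (8.86%) and the E-box in 5 (7.15%). By gene these were 10, 5 and 4 of the 24 members. The TATA box was in 1 window, that of Snx33 (13.6%). The ATF4-type site was in 1 window, of Snx10 (3.97% of all windows), and the CRE in 0 (1.79%). The Snx13 window, with no GC box, had 46 CpG, the highest number among the members' windows.

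Levels of different genes can be compared only per length, here as CPM per kilobase of merged exons (RPKM). On this scale Snx5, a cargo-binding SNX-BAR protein, was the highest member in both groups, at 126.7 ± 4.13 RPKM in Alox5-/- and 126.8 ± 2.23 RPKM in WT. Its partner Snx2 and the small PX protein Snx3, which helps recruit retromer, followed at 115.1 and 104.2 RPKM in Alox5-/- and at 105.7 and 111.2 RPKM in WT. Snx2 and Snx3 thus changed places between the groups, and in neither group did the libraries of one overlap those of the other. Vps26a and Vps35 came next in both groups on merged exons. In WT, Vps35, Snx17 and Snx6 could not be ordered, since the libraries of each overlapped those of the others. Lower down, the same held in WT for Snx11, Snx9 and Snx15, and for Snx8 and Snx19.

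Snx7 moved from place 31 of 34 in WT, at 0.3455 ± 0.0102 RPKM, to place 27 in Alox5-/-, at 3.266 ± 0.231 RPKM. In WT it lay just under Snx29 and above Snx21, and its libraries overlapped neither. In Alox5-/- it lay above Snx16, Snx30, Snx32 and Snx29, and still under Snx33, with no overlap with Snx33 or Snx16. With the coding length of transcripts it was at place 30 in WT, above Snx29 (1.464 and 1.159 RPKM), and at place 22 in Alox5-/-, above Snx33 (13.83 and 3.768 RPKM), so its order beside these genes depends on the length taken. The lowest members were Snx21, Snx22 and Snx31. Snx31, a relative of Snx17, had 3, 5 and 1 counts in Alox5-/- and 2, 0 and 2 in WT, and the level that a count of 0 allows (3 counts) was 0.0775 to 0.104 CPM. Snx22 had 12, 4 and 6 counts against 12, 7 and 10. No difference was detectable at this depth for either gene.

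**Figure D2:**
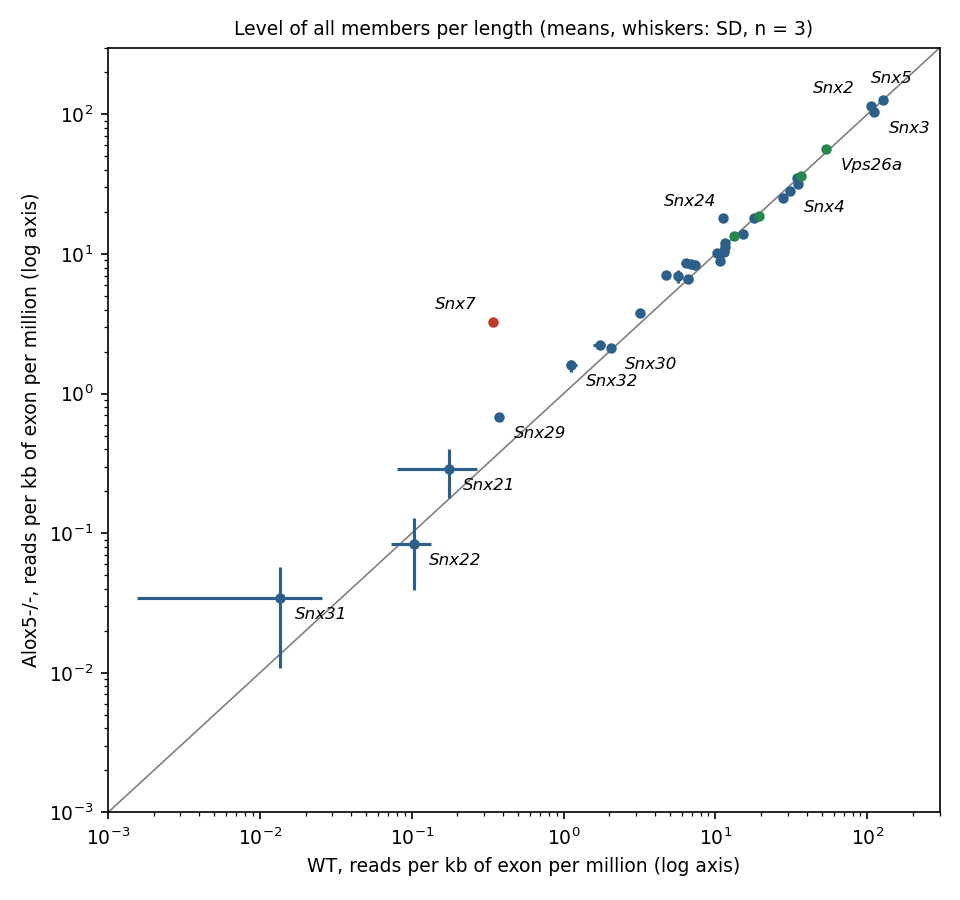
Level per length (RPKM, both axes logarithmic) of all 34 members in WT and in Alox5-/- cells, as means with SD over 3 libraries; the grey line marks equal levels, Snx7 is red, other sorting nexins blue and retromer genes green. Most members lie near the line, and Snx7 lies above it at 0.3455 RPKM in WT and 3.266 RPKM in Alox5-/-.

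Within the set of Snx4, Snx7 and Snx30, Snx7 made up 9.23, 9.39 and 10.5% of the summed RPKM in Alox5-/- and 1.05, 1.01 and 1.06% in WT. Snx4 was thus the main transcript of the set in every library. The summed level was 33.6 ± 0.348 RPKM in Alox5-/- and 33.2 ± 0.106 RPKM in WT with merged exons. Of the alternative partners alone, Snx7 made up 60.7 ± 2.61% of Snx7 plus Snx30 in Alox5-/- and 14.5 ± 0.262% in WT. These shares rest on the length taken for each gene. With the median length of the coding transcripts, a choice made after seeing the data, the sum was 51.7 ± 0.791 RPKM in Alox5-/- and 42.5 ± 0.158 RPKM in WT. With that length Snx7 was 26.7% of the 3 genes in Alox5-/- and 3.45% in WT, and 86.0% and 40.3% of Snx7 plus Snx30. The Snx7 shares were higher in Alox5-/- with both lengths. Of the places by level, that of Snx5 at the top was the same with both, while in WT Vps29 moved from place 13 to 5, Snx10 from 25 to 11, Vps26a from 4 to 9 and Vps35 from 5 to 6.

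Across the family, 20 of 32 tested members passed the threshold, 13 higher and 7 lower in Alox5-/-, while 53.8% of all tested genes passed it, 26.8% higher and 27.0% lower. For 21 members the groups had no overlapping libraries, against 60.0% of all tested genes. At least 1.5-fold differences past the threshold were found for 3 members, Snx7, Snx29 and Snx24, and in 11.5% of all tested genes. Only Snx7 differed at least 2-fold. The median log2 fold change of the 32 was 0.03, and 0.0001 over all tested genes. Without Snx7 the other 31 tested members ran from -0.26 to 0.84, with a median of 0.02. Since the contrast itself chose the family, nothing is read from these counts. The plot of log2 fold changes by role sets all tested members side by side.

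**Figure D3:**
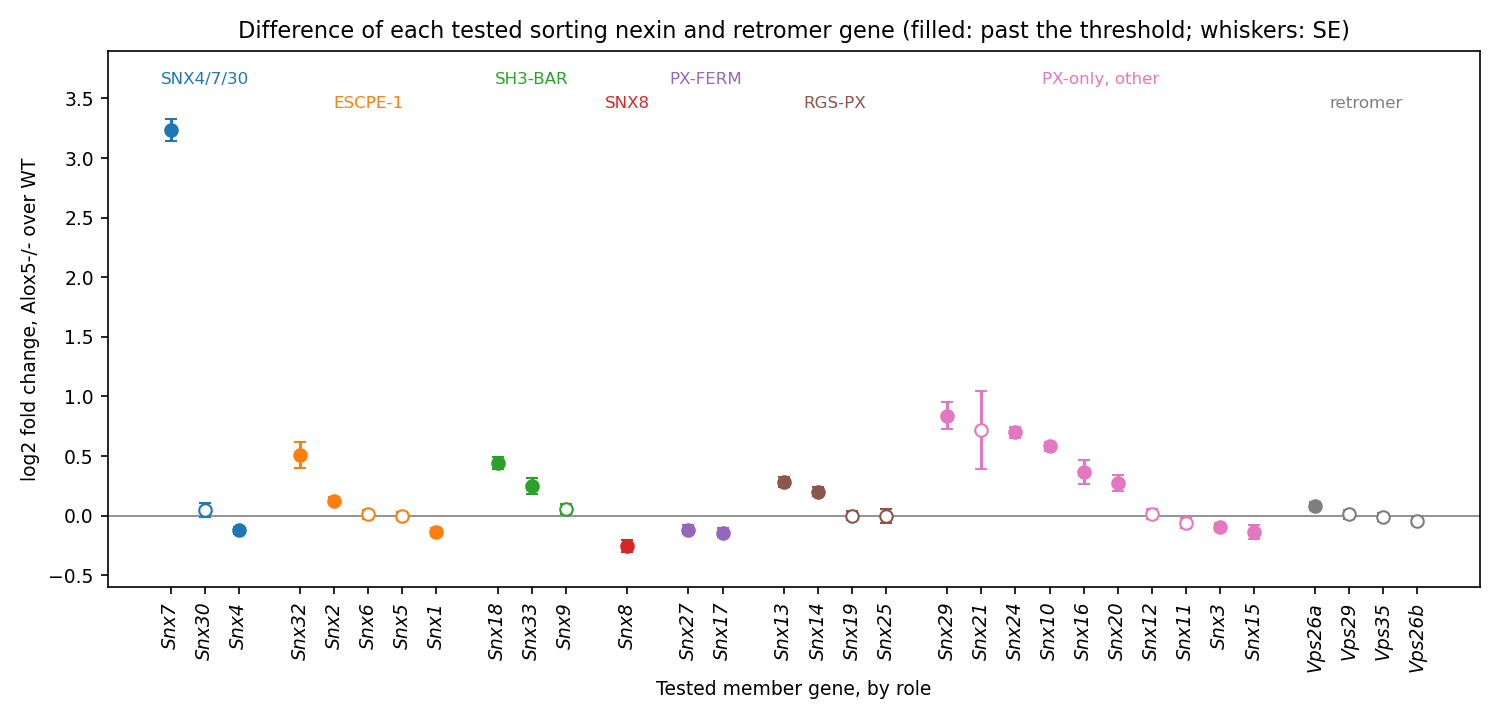
Log2 fold change of Alox5-/- over WT for the 32 tested members, grouped by role (colours); filled points passed the adjusted p threshold, open points did not, and whiskers are SE. Snx7 is at 3.24 and every other member lies between -0.26 and 0.84.

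The SNX-BAR pairs of the ESCPE-1 complex, in which SNX1 or SNX2 joins SNX5 or SNX6 to carry the mannose 6-phosphate receptor and other cargo back to the Golgi, differed little. Snx1 was at 109.0, 111.3 and 110.0 CPM in Alox5-/- against 121.3, 119.1 and 122.5 CPM in WT, a difference of -0.14 on the log2 scale (SE 0.03). Snx2 was at 311.0, 308.8 and 313.3 CPM against 282.3, 289.7 and 284.7 CPM, a difference of 0.12 on the log2 scale (SE 0.03). These alternative subunits thus went opposite ways with no overlap, and Snx2 made up 81.9 ± 0.228% of their summed RPKM in Alox5-/- and 79.1 ± 0.42% in WT. Snx5 (0.00) and Snx6 (0.01) did not pass the threshold. Snx32, a relative of Snx5 and Snx6, was at 5.744, 5.061 and 6.189 CPM in Alox5-/- against 3.917, 4.377 and 3.72 CPM in WT, a difference of 0.51 on the log2 scale (SE 0.11). It made up 0.979% of the summed RPKM of Snx5, Snx6 and Snx32 in Alox5-/- and 0.693% in WT. Snx32 shares 468 exon bases with Cfl1 on the opposite strand, a gene with 224332 counts that was lower in Alox5-/- (log2 fold change -0.28). The sources used here do not give the strand setting of the counting, and the part of Cfl1 reads in the Snx32 count was not tested.

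The SNX-BAR proteins with an SH3 domain, SNX9, SNX18 and SNX33, act with dynamin in endocytosis. Snx18 was at 44.44, 46.37 and 44.26 CPM in Alox5-/- against 35.29, 30.94 and 33.22 CPM in WT, a difference of 0.44 on the log2 scale (SE 0.05). Snx33 passed the threshold in the same direction (0.25, SE 0.07), and Snx9 had 0.06 (SE 0.04) and did not pass it. Of the 3, 2 were higher and none lower, beside 26.8% higher and 27.0% lower of all tested genes, and nothing is read from so few. Snx8, a SNX-BAR protein of endosome-to-Golgi transport, had the lowest log2 fold change of all tested members. It was at 28.91, 29.65 and 28.02 CPM in Alox5-/- against 35.83, 33.06 and 34.53 CPM in WT, -0.26 on the log2 scale (SE 0.05), with every Alox5-/- library below every WT library.

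The PX-FERM members bind receptor tails. SNX17 recycles LRP1 and integrins together with the Commander complex, and SNX27 links receptors to retromer through a PDZ domain. Snx17 was at 101.9, 94.62 and 98.08 CPM in Alox5-/- against 108.1, 105.0 and 111.8 CPM in WT, a difference of -0.14 on the log2 scale (SE 0.04). Snx27 averaged 96.29 ± 2.34 CPM against 104.4 ± 3.04 CPM, a difference of -0.12 on the log2 scale (SE 0.04). Both lay lower in Alox5-/- in all libraries, by about the same amount. The call of Snx27 was lost without Alox5-/- replicate 2, where its log2 fold change was -0.09.

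The RGS-PX members are large proteins of membrane contact sites and lipid handling. Snx13 had a log2 fold change of 0.28 (SE 0.04) and Snx14 of 0.20 (SE 0.04), both past the threshold. Snx13 was at 66.35 ± 2.23 CPM in Alox5-/- against 54.6 ± 2.21 CPM in WT, and Snx14 at 51.08 ± 0.183 against 44.47 ± 0.561 CPM. Snx19 (0.00, SE 0.04) and Snx25 (0.00, SE 0.06) did not pass it, and their libraries overlapped.

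Among the members with a PX domain and little else, and the remaining ones, 5 of 10 tested were higher, 2 lower and 3 did not pass. Of all tested genes 26.8% were higher and 27.0% lower, and nothing is read from these counts. Snx29 was at 4.236, 4.308 and 4.541 CPM in Alox5-/- against 2.411, 2.39 and 2.489 CPM in WT, a difference of 0.84 on the log2 scale (SE 0.11), the highest after Snx7. Snx24 was at 45.6, 43.39 and 43.86 CPM against 27.05, 28.48 and 26.46 CPM, a difference of 0.70 on the log2 scale (SE 0.05). The groups were well apart for both genes. Snx10, a small PX protein tied to the vacuolar proton pump of osteoclasts, was at 66.39, 64.32 and 67.91 CPM in Alox5-/- against 43.93, 44.68 and 44.04 CPM in WT, a difference of 0.58 on the log2 scale (SE 0.04). Its libraries did not overlap either, and its spread within a group was small beside the difference.

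Snx16, an endosomal PX protein with a coiled coil, had a log2 fold change of 0.36 (SE 0.10), with 5.867 ± 0.109 CPM against 4.54 ± 0.425 CPM in WT. Snx20, which binds the P-selectin ligand PSGL-1 in leukocytes, was at 41.65, 50.09 and 41.64 CPM in Alox5-/- against 37.3, 35.45 and 37.34 CPM in WT, a difference of 0.28 on the log2 scale (SE 0.06). Its highest value was in Alox5-/- replicate 2, which differed most from the other libraries of its group, and without that library the log2 fold change was 0.19 and still past the threshold. Snx12 (0.02) and Snx11 (-0.06) did not pass the threshold. Snx3 was at 147.2 ± 2.47 CPM in Alox5-/- against 157.1 ± 3.54 CPM in WT, a difference of -0.09 on the log2 scale (SE 0.03).

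Retromer itself was nearly level. Vps35, the backbone subunit, was at 325.7, 318.3 and 327.6 CPM in Alox5-/- against 318.7, 341.4 and 319.1 CPM in WT, a difference of -0.01 on the log2 scale (SE 0.03) with overlapping libraries. Vps29, the subunit that binds regulators at the far end of the arch, was at 84.65, 79.57 and 83.45 CPM against 79.92, 83.43 and 82.22 CPM (0.01, SE 0.04), also overlapping. The arrestin-like subunit has 2 genes. Vps26a was at 159.6, 162.3 and 165.2 CPM in Alox5-/- against 151.3, 157.0 and 152.0 CPM in WT, a difference of 0.08 on the log2 scale (SE 0.03). Vps26b was at 96.36, 95.98 and 94.55 CPM against 98.61, 100.3 and 97.57 CPM, a difference of -0.05 on the log2 scale (SE 0.03) that did not pass the threshold although the libraries did not overlap. Vps26a made up 75.2 ± 0.505% of the summed RPKM of both genes in Alox5-/- and 73.5 ± 0.206% in WT. Vps26a is the only retromer gene past the threshold.

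The calls nearest the threshold depended on single libraries, and some also on the scaling or the filter. Just inside it lay Snx15 and Vps26a, and just outside lay Snx21. Snx15 was at 22.66, 25.1 and 23.01 CPM in Alox5-/- against 25.65, 26.23 and 25.89 CPM in WT, a difference of -0.14 on the log2 scale (SE 0.06), with Alox5-/- replicate 2 close to the WT libraries. Its call was lost without Alox5-/- replicate 1 (-0.11) or 3 (-0.12) and without WT replicate 1 (-0.14), 2 (-0.13) or 3 (-0.14). The call of Vps26a was lost without Alox5-/- replicate 1 (0.09), 2 (0.09) or 3 (0.07) and without WT replicate 1 (0.07) or 3 (0.07). The call of Snx3 was lost without Alox5-/- replicate 1 (-0.09) or 3 (-0.08) and without WT replicate 1 (-0.09) or 3 (-0.08). Snx21 had 33, 58 and 32 counts in Alox5-/- and 39, 12 and 30 in WT, with a log2 fold change of 0.72 (SE 0.33) and overlapping libraries. It was 0.37 without Alox5-/- replicate 2, 0.42 without WT replicate 2 and 1.14, past the threshold, without WT replicate 1. With no filter on low counts it was 0.73 and also past the threshold.

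The genes that work beside sorting nexins and retromer were taken as 10 lists of 142 genes, of which 132 were tested. Of these, 35 were higher, 40 lower and 57 did not pass the threshold (median log2 fold change -0.03). This balance turned to 40 higher and 33 lower with upper-quartile factors and to 38 higher and 33 lower with a stricter filter on low counts. The count is 75 of 132, beside the 53.8% of all tested genes, 26.8% higher and 27.0% lower. The counts of single lists below stand beside the same shares, and nothing is read from them. The median size of the log2 fold change, sign left aside, was 0.14 in these genes and 0.19 over all tested genes. Calls close to the threshold were less firm, and those of Commd8, Chmp3, Washc1, Fig4, Tsg101 and Rab35 were lost under several alternatives. The plot of the lists shows every tested gene of each.

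**Figure D4:**
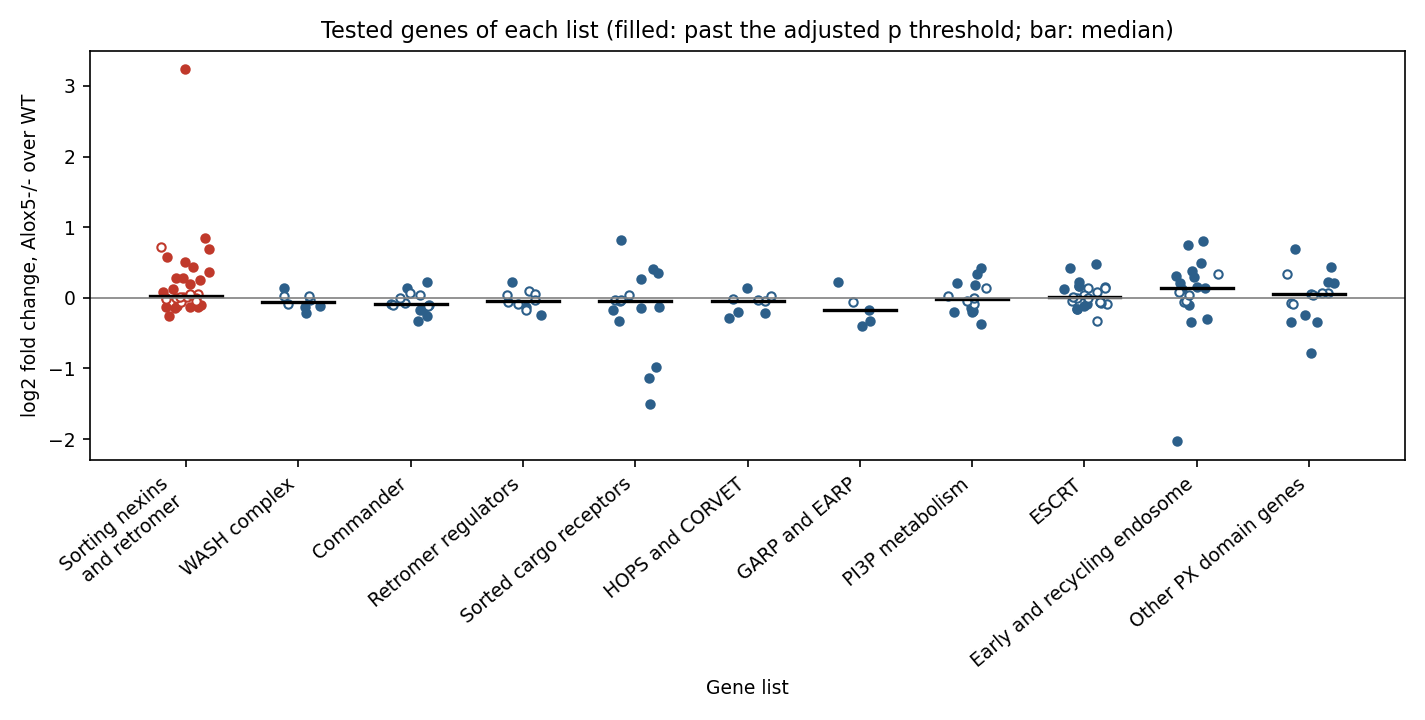
Log2 fold change of Alox5-/- over WT for each tested gene of the sorting nexin and retromer family (red) and of 10 lists of other trafficking genes (blue); filled points passed the adjusted p threshold and black bars are list medians. The medians run from -0.17 for GARP and EARP to 0.14 for the early and recycling endosome, and Snx7 at 3.24 is the highest point.

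Among receptors that sorting nexins and retromer carry, 4 of 15 tested were higher and 7 lower (median -0.04). Tfrc, the transferrin receptor recycled with SNX4, was at 302 ± 14 CPM in Alox5-/- against 594 ± 30.9 CPM in WT, a difference of -0.98 on the log2 scale (SE 0.04; edgeR adjusted p = 1.03e-10). Lrp1, a lipoprotein receptor recycled with SNX17, was at 56.9 ± 2.03 against 32.1 ± 2.44 CPM, a difference of 0.82 on the log2 scale (SE 0.05; edgeR adjusted p = 1.01e-08). Wls, the Wnt carrier sorted by SNX3 and retromer, rose by 0.40 (SE 0.03; edgeR adjusted p = 5.39e-08). Cargo genes of different sorting nexins thus went both ways.

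In the WASH complex, which builds actin on endosomes beside retromer, 1 of 8 was higher and 3 lower (median -0.06). Capzb, an actin capping subunit, fell by 0.21 (edgeR adjusted p = 3.28e-05). Capza1 (-0.12) and Washc3 (0.14) passed with edgeR adjusted p = 0.0177 and 0.0258. Both depended on single libraries. Capza1 had adjusted p = 0.0665, 0.0544 and 0.0582 in edgeR without Alox5-/- replicate 1, Alox5-/- replicate 2 and WT replicate 2. Washc3 had adjusted p = 0.0527, 0.0944, 0.0777 and 0.0795 in edgeR without Alox5-/- replicates 1 and 3 and WT replicates 1 and 2.

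Commander, the complex that recycles cargo of SNX17, had 2 higher and 5 lower of 14 tested (median -0.09). Commd7 and Commd5 fell by 0.26 and 0.34 and Vps35l, its retromer-like backbone, by 0.17 on the log2 scale. Among the lower calls, that of Commd8 (edgeR adjusted p = 0.0457) was lost under most alternatives. Among regulators of retromer, 1 of 10 tested was higher and 2 lower (median -0.04): Ehd1 rose by 0.22, and Ehd4 and Dnajc13 fell by 0.24 and 0.13. EHD proteins cut endosomal tubules, and Dnajc13 is an endosomal chaperone cofactor.

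GARP and EARP, tethers that receive endosomal carriers, had the lowest median (-0.17), with 1 of 5 higher and 3 lower. Vps53 fell by 0.39 and Vps52 by 0.32, while Vps54, the subunit that sets GARP apart, rose by 0.22. In HOPS and CORVET, the tethers of late and early endosomes, 1 of 8 was higher and 3 lower (median -0.04). Those with the smallest p, Vps33a, Vps18 and Tgfbrap1, fell by 0.22, 0.29 and 0.21.

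Genes that make or remove PI3P, the lipid to which PX domains bind, had 4 higher and 5 lower of 14 (median -0.02). The phosphatase genes Mtmr6 and Mtmr4 went opposite ways, 0.34 and -0.37, and Atg14, which directs the PI3P kinase to autophagy, rose by 0.43. In ESCRT, which sorts cargo towards lysosomes, 7 of 24 tested were higher and 4 lower (median 0.01), and Vps37a, Vps37b and Chmp4b rose by 0.42, 0.48 and 0.16.

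The early and recycling endosome list had the highest median (0.14), with 10 of 19 higher and 4 lower. Rab11fip2 and Rab11fip5, which link RAB11 vesicles to motors, rose by 0.75 and 0.81, and Appl2, an early endosome adaptor, by 0.50. The small GTPase gene Rab4a, named after its values were seen, had the lowest value of any listed gene (log2 fold change -2.03, SE 0.22; edgeR adjusted p = 1.9e-06), with 0.457 ± 0.119 CPM against 1.87 ± 0.135 CPM in WT. Of other proteins with a PX domain, 4 of 15 tested were higher and 4 lower (median 0.05). Rps6kc1 and Kif16b, a motor of early endosomes, rose by 0.70 and 0.43, and Sh3pxd2a, a scaffold of invasive cell protrusions, fell by 0.78.

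No tested gene lay close to Snx7. The nearest was Frrs1, 873 kb away, at -0.14 on the log2 scale (SE 0.03; edgeR adjusted p = 0.00284), a small difference in the opposite direction to that of Snx7. Among the other members only Snx19 had its nearest tested gene more than 500 kb away.

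Snx2 and Snx24 lie side by side on the plus strand of chromosome 18, 24.8 kb apart. The next tested gene, 15.4 kb beyond Snx24 on the minus strand, is Ppic, a peptidyl-prolyl isomerase, described here because of its place and after its value was seen. Its log2 fold change was 4.58 (SE 0.09; edgeR adjusted p = 2.21e-14), against 0.70 for Snx24 and 0.12 for Snx2. Farther out the direction was mixed. Sncaip had -0.998 (SE 0.07; edgeR adjusted p = 1.21e-08) and Csnk1g3 0.22 (SE 0.04; edgeR adjusted p = 0.000807), while Cep120, Srfbp1 and Gm5507 did not pass the threshold.

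**Figure D5:**
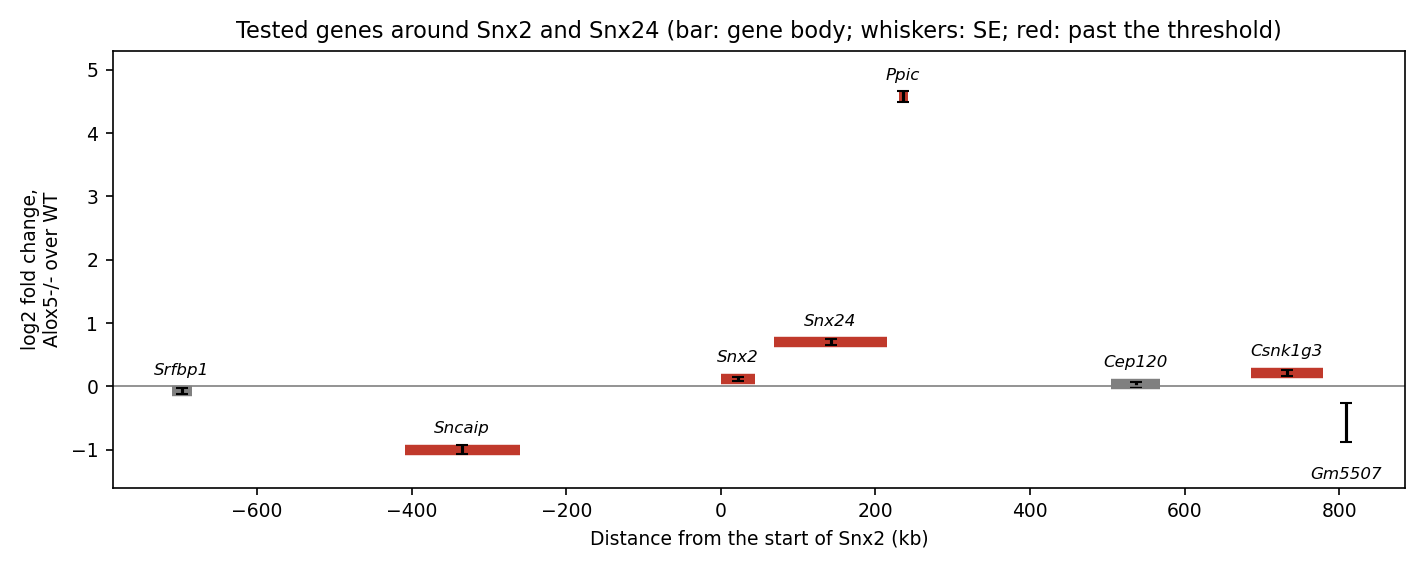
Log2 fold change of Alox5-/- over WT for the tested genes within 1 Mb of Snx24, drawn at their distance from the start of Snx2 (kb); horizontal bars span the gene bodies, whiskers are SE, and red marks genes past the adjusted p threshold. Snx24 at 0.70 lies between Snx2 at 0.12 and Ppic at 4.58.

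Several further members share exon bases with a neighbour, and reads there may be split or dropped by the counting, which was not tested. Snx30 overlaps Gm12543 on the same strand by 240 bases, and that gene had 5097 counts in all and a log2 fold change of 0.11 (edgeR adjusted p = 0.224). Snx17 overlaps Eif2b4 by 204 bases and Zfp513 by 163, and Vps35 overlaps Orc6 by 171, all on the opposite strand. Eif2b4 and Orc6 were lower in Alox5-/- by 0.19 and 0.30 on the log2 scale. On the opposite strand too, Snx5 overlaps Mgme1 by 206 bases and Vps29 overlaps Fam216a by 340. Mgme1 and Fam216a were higher in Alox5-/-, by 0.415 and 0.34. The longest overlap was that of Snx22 with Ppib, 825 bases on the opposite strand, and Ppib had 42454 counts in all. Snx7, Snx4 and Snx24 share exon bases with no other annotated gene.

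Gene counts per library were 28985597 to 38695948, or 60.0 to 60.9% of all reads. Alox5, the gene altered in the first group, was at 65.6, 62.1 and 64.9 CPM in Alox5-/- against 102, 106 and 106 CPM in WT, so its transcript was lower and still present. The sources used here do not give the part altered in the allele, and the count checks the labels only in part. Of the markers of the sorted cells, Kit and Cd34 were at 136 and 227 CPM in Alox5-/- against 160 and 177 CPM in WT, while Ly6a, which encodes Sca-1, was at 0.763 and 1.06 CPM. Flt3 was at 21.4 CPM in Alox5-/- against 11.3 CPM in WT and Cd48 at 29.7 against 45.6 CPM, so these markers went both ways. All 5 lymphoid and all 5 erythroid markers were under 1 CPM in both groups, with Cd3e and Ncr1 at 0 counts in every library. Summed lymphoid markers were 0.0642 to 0.205 CPM in Alox5-/- and 0.0337 to 0.314 CPM in WT, and summed erythroid markers 0.642 to 0.875 and 0.538 to 0.803 CPM. Of 5 macrophage markers 3 were under 1 CPM, with Marco at 0, and their sum was 49.3 to 53.1 CPM in Alox5-/- and 45.4 to 49.6 CPM in WT, within which Vcam1 was 18.8 against 4.58 CPM and Adgre1 32.9 against 43.1 CPM. Of 5 stromal and endothelial markers 4 were under 1 CPM, and Pecam1 was at 196 against 174 CPM. The summed myeloid markers were 753 to 829 CPM in Alox5-/- and 918 to 1020 CPM in WT. Mpo was at 65.6 against 197 CPM and Itgam at 91.9 against 107. Elane, at 430 against 486, and Csf1r, at 4.03 against 4.29, had overlapping libraries. Fcgr3 went the other way, at 187 against 161 CPM. The part of these marker differences in the differences of the sorting nexins was not tested.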

How the data were processed

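Poly-A RNA of FACS-sorted cells was amplified with a SMARTer kit, per the labels. The authors deposited raw read counts per gene, made with HTSeq on mm10, per the submitters' processing notes (DESeq2 is listed there too). The sources used here do not give the aligner, annotation release, strand setting or versions. The 5 summary rows that name no gene, among them reads without a unique alignment (24.4 to 24.8%), were left out of library sizes.

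The members and all lists were chosen with earlier results of these data known. From the counts, edgeR 4.0.16 (R 4.3.3; TMM factors, filterByExpr, quasi-likelihood F-test, no covariate) compared Alox5-/- with WT over 13705 genes, with Benjamini-Hochberg adjustment over all of them and a threshold of 0.05. CPM use TMM factors, and RPKM divide CPM by the merged exon length (GENCODE vM21). Each SE is the size of the log2 fold change divided by the square root of its F statistic. For genes with few counts in a group, as for Snx7 in WT, such an SE can lie below the error of counting alone. Values per library are given for Snx7, Snx4, Snx30, retromer, and the 4 highest and 4 lowest other members past the threshold; Snx2, Snx18, Snx20, Snx21, Snx22 and Snx31 were added after their values were seen. In the companion lists the 3 called genes of smallest p were named. Symbols Dennd10, Vps28 and Chmp1b found no match in the table. Snx7 neighbours were taken within 1 Mb; 1 of them is not reported here.

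A count of 0 allows 3 counts, for counting error only, since amplified reads are not independent molecules. Every pair of libraries differed by more than sampling noise (chi-square over its degrees of freedom 2.18 to 10.2 within groups and 35.5 to 50.7 between). Tested on simulated counts of this comparison (13575 genes), the fit recovered 64% of genes changed 1.2-fold, 92% at 1.5-fold, 98% at 2-fold and 100% at 4-fold, and made 25 false calls in 13375 genes left unchanged. Only 50 genes were changed at each fold, all drawn from genes with higher counts, while 53.8% of tested genes passed the threshold in the data. These rates therefore need not hold for the data or for members with few counts. Alternatives were DESeq2 1.42.0, limma-voom (limma 3.58.1), other scalings, filters, a robust fit, a replicate block and leaving out each library. Numbers of replicates were checked for pairing.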

Additional observations from a re-analysis of the deposited data

How the results depend on the processing

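No called member changed direction under the 14 alternatives, except that Snx29 gave no value under the stricter filter. The called members numbered 17 to 20, against 20 in the reported fit: 18 with DESeq2, 20 with limma-voom, 19 with DESeq2 size factors, 17 with upper-quartile factors, 19 with no filter, 18 with the stricter filter, 20 with the robust fit, and 17 to 19 with a library left out. Snx7, Snx16 and Snx32 passed the stricter filter (5 CPM in 3 libraries) only through the Alox5-/- libraries, where they are higher. Their calls under that filter therefore add nothing. Snx21 was called as well with no filter and without WT replicate 1. The calls shared with the reported fit in these alternatives were 18 of 19 and 17 of 18. The log2 fold change of Snx7 ran from 3.18 to 3.28. Called companions numbered 68 to 76, with 40 higher and 33 lower under upper-quartile factors and 38 and 33 under the stricter filter, and called genes overall 6219 to 7622. Upper-quartile factors moved the median of all genes to 0.03, with 4076 higher and 3201 lower calls, and ended the calls of Snx3, Snx15 and Snx27. Snx15 and Vps26a lost their calls with DESeq2 also. With DESeq2 size factors and with the stricter filter Snx15 lost its call too, and with no filter both Snx3 and Snx15 did.

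With the replicate block, 18 members (12 higher, 6 lower), 72 companions and 7029 genes were called, and Snx15 and Vps26a lost their calls. Same-numbered libraries did not deviate together (correlations -0.0561, -0.159 and -0.0375), beside -0.096 to 0.126 for libraries of unlike number across the groups. The values gave no sign of pairing by number, and with so few libraries they cannot exclude it. Depth limits Snx21, Snx22 and Snx31, which have few counts.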
